A study of Mus musculus with 3 samples.

Results

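Erythroblasts are the nucleated precursors of red cells, and the 2 libraries compared here were made from such cells of mouse fetal liver at the start of a culture, day 0, and on day 2. The comparison covers the listed nucleosome positions of these samples on autosomes 1 to 19. These were 3689577 positions on day 0 and 4382151 on day 2, or 8071728 of the 11209499 positions that the series lists over days 0, 1 and 2 and all chromosomes. The cells of both groups came from 6 fetuses and were negative at the start of culture for Ter119, which marks more mature red cell precursors. The labels give for both a culture in IMDM with insulin, 1% BSA, erythropoietin at 2 U/ml and fetal bovine serum at 10%, and the day of sampling is the difference they name. Whether both days come from 1 culture, the strain, and the age and sex of the fetuses are not stated in the sources used here. There was 1 library a day, so no difference between the days has a replicate check and none was tested. Nucleosome positions do not measure RNA, so the labelled cell type could not be checked against the expression of its markers.

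A nucleosome is a stretch of DNA wound around a core of histone proteins, and micrococcal nuclease digests the linker DNA between nucleosomes while sparing the wound DNA. Sequencing the spared fragments therefore maps where nucleosomes sat, and active promoters, above all those rich in CpG, typically have a depleted stretch just before the gene start with ordered nucleosomes behind it. During the last divisions of an erythroblast the nucleus condenses strongly and is then expelled, while globin and other red cell genes are transcribed. The promoters of red cell genes thus give a concrete view of what a listed position is.

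The promoter windows of 6 genes are printed to show the 3 kinds of outcome met at a single start, a position listed in the same place on both days, on day 0 only and on day 2 only. Of 95 erythroid list genes considered, 74 had a window of 300 bp in the RefSeq promoter table (GRCm38.p6, the coordinates of mm10). Of these windows, 10 had centres within 20 bp of each other on both days, 25 had centres on both days that lay farther apart, 10 had a centre on day 0 only, 20 on day 2 only and 9 on neither. The 13.5% with a centre on day 0 only and the 27% on day 2 only stand beside 10.9% and 21.6% of all 16457 windows. The 2 with the highest summit value, the smoothed coverage at a centre over the library median, were taken for each of the 3 kinds. Each line runs 5′ to 3′ along the gene's strand from 250 bases before the start to 30 bases after it, and capitals mark the bases within 70 bp of the listed centre (of the day 0 centre where both days have one).
Socs3: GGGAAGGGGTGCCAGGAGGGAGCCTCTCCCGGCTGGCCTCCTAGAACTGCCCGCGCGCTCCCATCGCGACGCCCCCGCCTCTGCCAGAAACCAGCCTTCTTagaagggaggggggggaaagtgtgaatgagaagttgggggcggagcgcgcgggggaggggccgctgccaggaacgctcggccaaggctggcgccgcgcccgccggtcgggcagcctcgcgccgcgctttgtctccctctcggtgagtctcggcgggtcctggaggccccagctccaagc
Stat5a: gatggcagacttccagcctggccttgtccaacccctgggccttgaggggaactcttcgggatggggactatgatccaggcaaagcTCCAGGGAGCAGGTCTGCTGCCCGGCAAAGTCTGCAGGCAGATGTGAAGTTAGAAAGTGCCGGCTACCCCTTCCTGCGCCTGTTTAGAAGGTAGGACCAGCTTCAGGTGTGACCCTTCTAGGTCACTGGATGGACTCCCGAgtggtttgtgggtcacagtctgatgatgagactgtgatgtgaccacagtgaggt
Erfe: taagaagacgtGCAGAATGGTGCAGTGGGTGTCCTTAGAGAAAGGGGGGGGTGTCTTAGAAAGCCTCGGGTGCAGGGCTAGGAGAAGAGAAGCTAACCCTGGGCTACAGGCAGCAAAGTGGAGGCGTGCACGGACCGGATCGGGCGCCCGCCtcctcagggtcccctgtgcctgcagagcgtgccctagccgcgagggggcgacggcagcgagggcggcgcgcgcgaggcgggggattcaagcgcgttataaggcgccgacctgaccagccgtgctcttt
Slc25a38: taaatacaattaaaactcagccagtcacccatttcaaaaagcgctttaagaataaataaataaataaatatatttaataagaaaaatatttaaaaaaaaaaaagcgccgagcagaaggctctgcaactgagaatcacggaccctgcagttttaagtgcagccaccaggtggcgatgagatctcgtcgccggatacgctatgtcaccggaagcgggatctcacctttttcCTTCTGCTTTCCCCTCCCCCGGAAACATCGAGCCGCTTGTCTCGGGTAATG
Rhd: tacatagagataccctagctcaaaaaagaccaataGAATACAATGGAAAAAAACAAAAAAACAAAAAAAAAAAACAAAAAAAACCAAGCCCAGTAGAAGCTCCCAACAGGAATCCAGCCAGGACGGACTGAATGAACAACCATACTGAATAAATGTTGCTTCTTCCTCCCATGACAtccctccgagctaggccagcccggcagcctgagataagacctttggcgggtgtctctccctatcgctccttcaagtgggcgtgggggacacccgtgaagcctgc
Kel: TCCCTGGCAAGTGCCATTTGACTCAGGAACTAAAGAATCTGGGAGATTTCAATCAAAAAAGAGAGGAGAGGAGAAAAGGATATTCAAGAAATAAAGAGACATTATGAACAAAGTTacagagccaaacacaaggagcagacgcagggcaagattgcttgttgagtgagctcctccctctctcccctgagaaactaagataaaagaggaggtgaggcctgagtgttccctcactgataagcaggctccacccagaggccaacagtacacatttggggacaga

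Socs3, a feedback inhibitor of cytokine receptor signalling, is shown at chr11:117969337-117969616 on the minus strand. Both days listed a centre at -220 bp from the start, at 2.10 times the median summit value of the library on day 0 and 1.90 times on day 2. Stat5a, a transcription factor activated by the erythropoietin receptor, is at chr11:100859406-100859685 on the plus strand, with centres at -95 bp on day 0 and -115 bp on day 2. The 2 genes thus show a matching pair of centres with an offset of 0 in the first case and of the full tolerance of 20 bp in the second. Erfe, which encodes the erythroid hormone erythroferrone, is at chr1:91366180-91366459 on the plus strand, and only day 0 listed a centre, at -169 bp and 2.40 times the median. Slc25a38, a mitochondrial glycine carrier needed for heme synthesis, is at chr9:120110132-120110411 on the plus strand, with a day 0 centre at 49 bp, so that the capitals show the part of this position that falls in the printed bases. Rhd, a red cell blood group protein, is at chr4:134864286-134864565 on the plus strand, with a centre on day 2 only, at -145 bp and 2.20 times the median. Kel, the Kell blood group protein, is at chr6:41704296-41704575 on the minus strand and had 2 centres on day 2 and none on day 0, of which the stronger, at -206 bp, is marked. The windows of Socs3 and Stat5a also held 2 centres on each day, and the marked one is that of the matching pair. The letters GATA, on either strand, occur 3 times in the window of Rhd, 3 times in that of Kel and 1 time in that of Slc25a38, and in none of the other windows shown. They occur in 53.1% of all 16457 windows of 300 bp, so their presence here is no distinction, and a match is a string of letters and not a bound site.

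Over the autosomes the day 2 list was 1.19 times as long, with 1.82 positions per kb against 1.54 on day 0. Its positions were lower on the authors' scale, with a median summit value of 6.26 against 7.62, and 9.06% of them reached 10 against 15.0% on day 0. Few positions lay below a summit value of 5, 2.48% on day 0 and 4.35% on day 2. The lowest 25% of day 2 positions had values of at most 5.004, against 6.098 on day 0. The total read numbers are not stated in the sources used here. Of the summit values, 98.5% on day 0 lie on whole steps of 0.762 and 98.7% on day 2 on whole steps of 0.626. The ratio of the steps, 1.22, is the only hint available of how much deeper the day 2 library was. Most comparisons below therefore use shares or values relative to the same library, while counts of empty windows, of long gaps and of promoters with a centre are not scaled for the longer list. Tall positions, those whose summit value reached 10, are used as an alternative. This limit is 1.31 times the median of day 0 and 1.60 times that of day 2, so it is stricter in the day 2 library. The median fuzziness, the authors' score for how widely the reads of a position spread, was 51.05 on day 0 and 51.07 on day 2. This difference of 0.017 turned to -0.054 when the longer list was shortened to equal length. The shortening dropped the lowest day 2 values and cut ties at about 5.004 in chromosome order, so it fell unevenly on the chromosomes.

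The days differed in how evenly positions covered the genome. On day 0 12437 of the 240345 windows of 10 kb held no position, 5.17% (exact Clopper-Pearson 95% interval 5.09 to 5.26%), and on day 2 891 did, 0.371% (0.347 to 0.396%). These and later intervals cover counting error only. Of the windows empty on day 0, 11719 held positions on day 2, with a median of 6, while 173 went the other way and 718 were empty on both days. The fullest 10% of the windows held 28.5% of all positions on day 0 and 23.9% on day 2, and the emptier 50% of the windows held 13.1% and 22.9%. With lists of equal length the difference in empty windows was 3.94 percentage points, against 4.80, but the cut fell unevenly on the chromosomes. Among tall positions, of which 553704 were listed on day 0 and 396817 on day 2, it was -1.11 points. The number of empty windows depends on the length of a list, and tall lists of equal length were not compared.

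Across the autosomes the density of positions ran from 1.14 per kb on chromosome 3 to 2.39 on chromosome 11 on day 0, a span of 2.09 times. On day 2 it ran from 1.54 per kb on chromosome 14 to 2.45 on chromosome 11, a span of 1.58 times. The share of signal, the summed summit values of a region over those of all autosomes of the library, was higher on day 2 for 11 of the 19 autosomes. Its ratio of day 2 to day 0 was lowest on chromosome 11, at 0.853, and highest on chromosome 3, at 1.18. Chromosome 11 carried 13.5 protein-coding genes per Mb and chromosome 3 carried 6.26. Chromosome 19 broke this order, with 12.1 genes per Mb and a ratio of 1.11.

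In bins of 100 kb the share of signal was at least 2 times higher on day 2 in 6843 bins and at least 2 times lower in 276, of 24017 bins with 20 or more positions over both days. That is 28.5% and 1.15% of the bins. Scaled to the median bin, whose log2 change was 0.30, the shares were 20.5% and 4.39%. Among tall positions they were 14.5% and 15.8% of the bins with 20 or more tall positions, so that the excess of higher bins was not present there. Sparse bins reach this minimum less often, and how many of the higher bins were still measured was not counted. The bins that were higher had a median of 23 positions on day 0 and 78 on day 2, and together held 4.24% and 12.3% of the signal. The bins that were lower had a median of 268.5 and 153 positions and held 2.01% and 0.890%. Higher bins made up between 14.1% of the bins of chromosome 11 and 39.7% of those of chromosome 15, and lower bins at most 4.32%, on chromosome 4.

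Bins that were sparse on day 0 held several times as many positions on day 2, and dense bins about as many, while the order of the classes was the same on both days. The 2694 bins with at most 20 positions on day 0 had a median of 15 then and 68 on day 2, and the central 90% of them held 49 to 92 on day 2. The 5249 bins with 21 to 50 positions went from a median of 32 to 82, and the 3518 bins with 51 to 100 from 72 to 113. The 4687 bins with more than 100 and up to 200 had medians of 145 and 172, and the 6318 bins with more than 200 and up to 400 had 288 and 295. At the other end, the 1551 bins with more than 400 positions on day 0 had a median of 439 on day 0 and 425 on day 2. No bin with 50 or fewer positions on day 0 was among the lower bins. Sorting bins by their day 0 number favours this order in part. A bin that was low on day 0 by counting error alone would also have appeared to gain. The part of counting error was not tested, nor was that of positions with summit values near 5, the lower end of both lists.

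**Figure D1:**
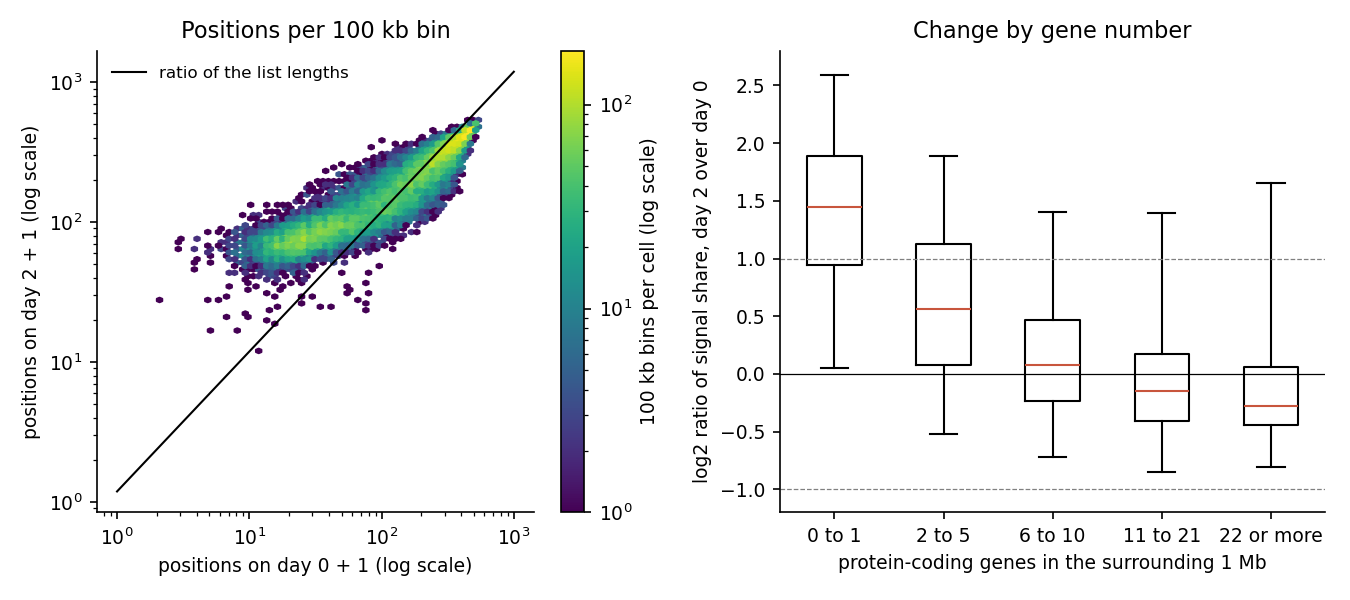
Left, number of listed positions in each 100 kb bin on day 0 against day 2, both plus 1 on log axes, with colour for the number of bins and a line at the ratio of the list lengths. Right, log2 ratio of signal share by number of genes in the surrounding 1 Mb, where boxes show quartiles, the red line the median and whiskers the central 90% of bins; the median falls from 1.45 in the gene-poorest bins to -0.28 in the gene-richest.

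Gene-poor bins were the main place of the higher shares. Of the 4928 measured bins that had 0 to 1 protein-coding genes within 1 Mb, 72.9% were higher and 3 bins lower, with a median log2 change of 1.45. Of the 2410 bins with 22 or more genes, 12.2% were higher and 1.87% lower, with a median of -0.28. These 295 higher bins in gene-rich surroundings were themselves sparse, with a median of 27 positions on day 0 and 90 on day 2. In 206 of them, 69.8%, at least 50% of the genes in the surrounding 1 Mb were olfactory or vomeronasal receptors, large families known for their role in smell. The same held for 327 of all 2410 gene-rich bins, 13.6%. Positions in bins with 0 to 1 genes within 1 Mb had a median summit value of 6.098 on day 0 and 5.004 on day 2. In bins with 22 or more genes it was 8.385 and 6.881. The day 2 positions of gene-poor bins were thus largely near the lower end of their list. For sequence 100 kb or more from any gene, the ratio of signal shares was 1.56 with all positions and 1.63 with tall positions only. How much of the higher shares of these bins rests on weak positions was not tested.

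Higher bins lay side by side in long runs. The 6843 bins formed 1178 runs, and 195 runs of 10 or more bins held 63.0% of them. The longest spanned 12.3 Mb at chr15:13100001-25400000, with 1609 positions on day 0 and 9986 on day 2, and its density relative to the autosome mean went from 0.069 to 0.388. It holds the genes of the cell adhesion proteins Cdh6, Cdh9, Cdh10, Cdh12 and Cdh18 together with Acot10, Basp1 and the pseudogene-named Hnrnpa1l2-ps2. The second spanned 9.6 Mb at chr14:87600001-97200000 with the protocadherin genes Pcdh9 and Pcdh20 and with Klhl1 and Spertl, and went from 1679 to 6877 positions. The third, 6.8 Mb at chr15:44800001-51600000, holds the potassium channel gene Kcnv1, Csmd3 and the transcription factor gene Trps1, and went from 1522 to 6572 positions. All 3 runs stayed below the autosome mean on day 2, with relative densities of at most 0.470.

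Lower bins lay in short runs, with 276 bins in 161 runs and none longer than 8 bins. They were unevenly spread, with 66 on chromosome 4, 48 on chromosome 5 and 0 on chromosomes 3, 16, 18 and 19. The 3 longest lay on chromosome 4. At chr4:131000001-131800000, which holds the receptor phosphatase gene Ptpru, the relative density went from 1.74 to 0.686, with 2215 positions on day 0 and 1139 on day 2. At chr4:139700001-140500000, with the muscle stem cell factor gene Pax7, Klhdc7a and the adhesion protein gene Igsf21, it went from 1.56 to 0.610. At chr4:154100001-154800000 it went from 2.35 to 0.937 over 7 genes, among them Trp73, a relative of p53, and Prdm16, a regulator of brown fat and of stem cells. In contrast to the higher runs, these began above the autosome mean and ended below it.

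The same shift appeared when the autosomes were divided by gene bodies. Sequence 100 kb or more from any protein-coding gene made up 27.3% of the length and held 8.47% of the signal on day 0 and 13.2% on day 2. The ratio was 1.56 ± 0.19 (SD over 19 autosomes, which are parts of 1 library and no replicates), above 1 on 19 of 19 autosomes. Inside genes the ratio climbed with gene length, from 0.871 ± 0.069 in genes under 10 kb to 0.875 ± 0.047 at 10 to 50 kb, 0.918 ± 0.032 at 50 to 200 kb, 0.981 ± 0.072 at 200 to 500 kb and 1.27 ± 0.28 at 500 kb or more. Genes under 10 kb were below 1 on 19 of 19 autosomes and genes of 500 kb or more above 1 on 19 of 19. Among tall positions the ratio far from genes was 1.63, that in the longest genes 1.19 and that in the shortest 0.984, so the difference far from genes was as large among the strongest positions while the deficit of short genes was smaller.

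The density of signal per length still ranked the regions in the same way on both days. Genes under 10 kb had 2.56 times the autosome mean on day 0 and 2.23 times on day 2, genes of 500 kb or more 0.422 and 0.535 times, and sequence far from genes 0.310 and 0.483 times. The 2 days thus differed in how steep the ranking was. Along the chromosomes, where all mouse autosomes have the centromere at the end with the lowest coordinates, the first 5 Mb had a ratio of 1.32 ± 0.60 and the next 15 Mb one of 1.37 ± 0.31, each above 1 on 18 of 19 autosomes. The stretch from 2 to 10 Mb before the last listed position had a ratio of 0.856 ± 0.12, below 1 on 14 of 19.

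**Figure D2:**
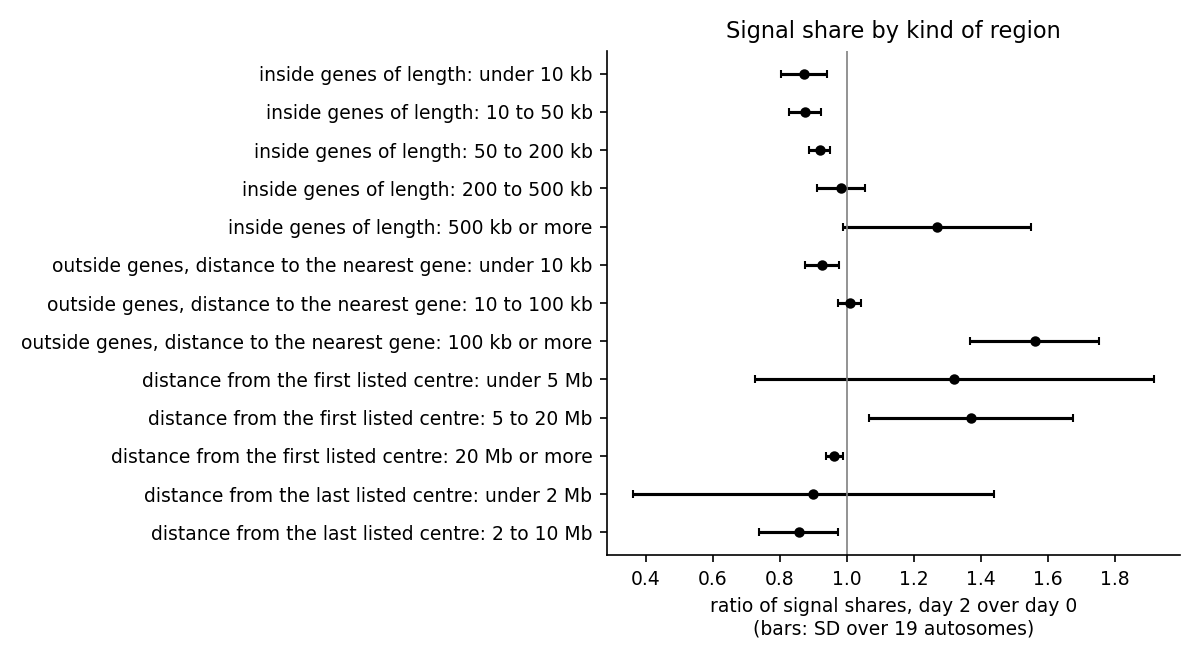
Ratio of the share of summed summit values, day 2 over day 0, for gene bodies by length, for sequence outside genes by distance to the nearest gene, and by distance from the ends of the listed part of each autosome. Points are the ratio over all autosomes and bars the SD over 19 autosomes; sequence 100 kb or more from a gene stands highest at 1.56 and the stretch 2 to 10 Mb from the last listed position lowest at 0.856.

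Few listed centres had a close partner on the other day, and positions with a partner within 20 bp are called kept below. The share that 2 libraries of the same cells would give is not known, because each day has 1 library. Whether nucleosomes moved was therefore not tested. Of the day 0 positions, 15.8% had a day 2 centre within 20 bp, and 12.2% did after the day 2 list was moved by 1000 bp in either direction, a ratio of 1.30 ± 0.022 (SD over 19 autosomes). Of the day 2 positions 13.3% had a day 0 centre within 20 bp, against 10.3% after the move. The share depends on the tolerance, at 9.04% within 10 bp and 34.2% within 50 bp, with ratios of 1.37 and 1.18. Among tall positions the share was 5.48% and the ratio 1.72. Of the 584532 pairs of centres within 20 bp, 10.5% had the same coordinate, and 80.8% of day 0 centres and 80.4% of day 2 centres lie on a grid of 5 bp, which bears on exact matches.

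Relative to the moved list, strong positions and sharply placed ones were kept more often. The 25% of day 0 positions with the highest summit values had a ratio over the moved list of 1.37 ± 0.040, and the lowest 25% 1.20 ± 0.053. The positions in both the highest 25% of summit values and the lowest 25% of fuzziness, 192457 on day 0, were kept in 20.2% of cases against 13.1% after the move, a ratio of 1.54 ± 0.052. From the day 2 side the same choice gave 17% against 11%, also 1.54. By fuzziness alone, the sharpest 25% of day 0 positions had a partner in 13.6% of cases and the fuzziest 25% in 17.6%, with ratios over the moved list of 1.39 and 1.22, so the share and the ratio ran in opposite orders. Summit values are tied in steps, so the borders of these classes fall within tied values. Between partners of a pair the fuzziness differed by a median of 0.39, day 2 minus day 0, with the middle 50% between -4.45 and 5.29. The days were thus close in the median of fuzziness and far apart at single positions.

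Kept positions had another share in gene-poor than in gene-rich sequence. In bins with at most 1 gene in the surrounding 1 Mb, 7.84% of the day 0 positions and 3.25% of the day 2 positions had a partner, and the ratio over the moved list was 1.56 on both sides. In bins with 22 or more genes the shares were 20.5% and 20.7%, with a ratio of 1.25. The positions of gene-poor bins on day 2 therefore mostly had no day 0 position near them. Their median fuzziness was 46.9 on day 0 and 48.3 on day 2, and in the gene-richest bins it was 52.9 and 52.7.

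The distances between neighbouring positions were shorter on day 2 in gene-poor sequence and slightly longer in gene-rich sequence. Over the autosomes the median gap between neighbouring centres was 252 bp on day 0 and 260 bp on day 2, and gaps of 150 to 250 bp, about the length of a nucleosome with its linker, made up 34.1% and 32.8%. In bins with at most 1 gene in 1 Mb the median gap went from 1080 to 605 bp, and in bins with 22 or more genes from 210 to 217 bp. Gaps of 10 kb or more numbered 20140 on day 0 and 1310 on day 2. Rows of regularly spaced positions were about as common, with 6.36% of the day 0 and 5.75% of the day 2 positions in runs of 4 or more gaps of 150 to 250 bp, and a longest run of 16 gaps on both days. The frequency of distances between centres had 2 peaks of similar height. The first lay at 145 bp on day 0 and 135 bp on day 2, at 1.35 and 1.33 times the mean frequency of long distances. The second lay at 245 bp on both days, at 1.38 times on day 0 and 1.43 times on day 2. No repeat length is given, because the line through the maxima used different maxima in the 2 libraries.

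At gene starts the depleted stretch was shallower on day 2, and this held for promoters rich in CpG. Density was summed around the 16457 starts with a promoter window, which lie on 18 autosomes, and divided by that of the outer flanks of the same library. In the 5798 starts with a CpG ratio, observed over expected, of 0.75 or more, the density in the 150 bp before the start was 0.519 ± 0.062 (SD over 18 autosomes) on day 0 and 0.674 ± 0.087 on day 2. The ratio was 1.30 ± 0.17 and was above 1 on 18 of 18 autosomes. It kept this direction in the list of equal length (1.31), with each position counted once (1.25) and among tall positions (1.46). In the 3483 starts of middle CpG ratio it was 1.22 ± 0.20, above 1 on 17 of 18. In the 7176 starts with a CpG ratio under 0.5 the density was 1.07 on day 0 and 1.03 on day 2, with a ratio of 0.964 ± 0.12, above 1 on 7 of 18.

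Behind the start the maxima of density lay close together on both days. On a smoothed line the first maximum of high CpG starts lay 105 bp after the start on both days, with a height of 1.88 on day 0 and 2.00 on day 2, and the second at 335 and 315 bp. From 50 to 200 bp after the start the ratio of day 2 to day 0 was 1.08 ± 0.071 at high CpG starts and 1.03 ± 0.13 at low CpG starts. The days thus differed more before the start than after it in promoters rich in CpG.

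**Figure D3:**
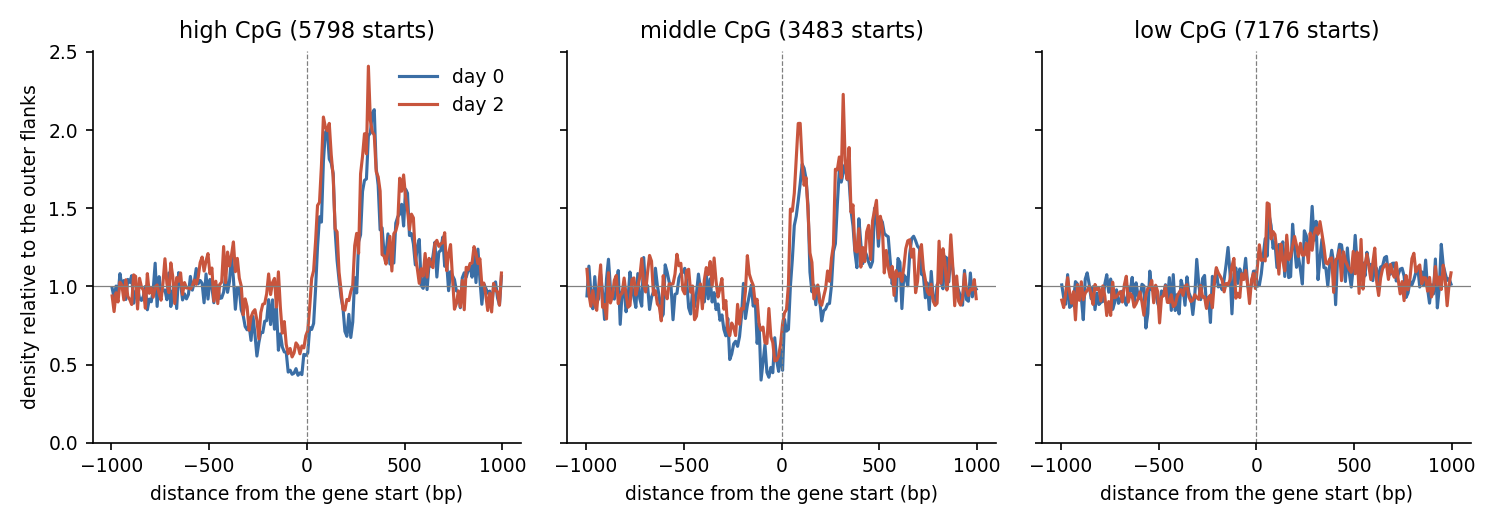
Summit-weighted density of positions around gene starts in steps of 10 bp, unsmoothed and relative to the outermost 200 bp on both sides, for high, middle and low CpG ratio of the promoter. The day 2 line lies above the day 0 line just before high CpG starts (0.674 against 0.519 over 150 bp), and the lines overlap at low CpG starts.

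Promoters rich in CpG were also higher on day 2 without division by the flanks. Of the high CpG windows 53.2% held a centre on day 0 (exact 95% interval 51.9 to 54.5%) and 67.2% on day 2 (66.0 to 68.4%), and of the low CpG windows 50.8% (49.6 to 51.9%) and 57.3% (56.1 to 58.4%). These shares are not scaled for the longer day 2 list, and over all windows they were 52.3% and 63.0%. Relative occupancy, which is scaled, was 1.24 times as high on day 2 in high CpG windows and 0.945 times in low CpG windows. Sorted by GC share, windows of 70% GC or more had 1.22 ± 0.11 times the relative occupancy on day 2, above 1 on 18 of 18 autosomes, while the 10 kb around them had 0.922 times. Windows at 50 to 55% GC had 0.949 ± 0.090 times, above 1 on 6 of 18. Windows under 35% GC had 1.78 times, on 55 and 113 positions and above 1 on 13 of the 15 autosomes that gave a value, and the 10 kb around them 1.91 times. The differences thus went in the same direction at both ends of the GC scale, but only at the low end did the surroundings share it. Micrococcal nuclease prefers to cut at A and T, and how far each library was digested is not stated in the sources used here. Its part in these differences was not tested.

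Over whole gene bodies, relative occupancy is the summed summit values per bp of the gene divided by the same over the autosomes of the library. It was measured for 15844 of 20560 protein-coding autosomal genes, those with at least 30 positions over both days. By a size rule of 2 times, 776 genes were higher on day 2, 4.9% of those measured, and 257 lower, 1.62%. The median log2 change was -0.16, with 5616 genes above 0 and 10228 below, so most genes lay slightly lower and a smaller number much higher. Scaled to the median gene the counts were 1029 and 129. In lists of equal length, cut unevenly over the chromosomes, they were 685 and 550 of 15563 measured genes. Among tall positions they were 506 and 826 of 6412, or 7.89% and 12.9%, so higher genes did not outnumber lower ones there. Sparse genes reach the minimum of 30 positions less often among tall positions, so these are a different set of genes. The higher genes were sparse and long, with 0.215 as their median occupancy on day 0 and a median length of 50.9 kb. The lower genes were shorter and slightly denser than the typical measured gene, at 2.45 and 17.2 kb beside medians of 2.17 and 26.2 kb. Short genes reach the minimum of 30 positions only where they are dense.

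The genes with the largest increases, extremes of 15844, were named by size and were all nearly empty on day 0. Vmn2r62, a pheromone receptor gene at chr7:42764438-42793496, had 2 positions on day 0 and 29 on day 2. Near-identical copies of this family can take each other's reads, so its value is uncertain. Cdh18, a cadherin gene of 929 kb at chr15:22548898-23477491 in the longest higher run, had 79 and 652 positions. Its relative occupancy was 0.045 on day 0 and 0.334 on day 2, a log2 change of 2.88, and the ratio of position numbers over that of the lists was 6.95 (exact 95% interval 5.495 to 8.89). The cadherin genes Cdh9 and Cdh7 had 10 and 85 and 12 and 97 positions, with log2 changes of 2.93 and 2.89. The other named increases were Nlrp5, a protein of the egg; Klra4, a natural killer cell receptor; Mmp27, a matrix metalloproteinase; Kcna4, a potassium channel; Slc22a28, of an organic ion carrier family; and Hnf4g, a nuclear receptor. Their log2 changes ran from 2.799 at Hnf4g to 3.32 at Nlrp5, and that of Vmn2r62 was 3.72. Of the 10, Mmp27 alone ended above the autosome mean, going from 6 to 43 positions and from 0.291 to 2.33.

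The genes with the largest decreases were all above the autosome mean on day 0, as was the median measured gene, at 2.17 times that mean. Cxcl14, a chemokine gene at chr13:56288643-56296811, had 29 positions on day 0 and 9 on day 2, and its relative occupancy was 2.45 and 0.509, a log2 change of -2.27. Gkn2, a secreted stomach protein, had 27 and then 8 positions, a log2 change of -2.26, and Krt77, an epidermal keratin, 36 and 13 and -2.16. Arhgef16, a guanine nucleotide exchange factor gene at chr4:154278469-154300107, lies in the third longest lower run and had 89 and 35 positions, with a ratio of position numbers of 0.331 (0.217 to 0.495). The others were Lyzl6, Birc7, Syde1, Cfap73, Pla2g2c and Sun5, with log2 changes between -1.99 and -1.65. The counting interval of the ratio of position numbers left out 1 in every case, 10 of 10 in each direction. Since these genes were picked as extremes, the intervals describe them and do not test them.

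Genes and their surroundings mostly differed in the same direction. The 500 kb on each side of a gene, without the gene, had a median log2 change of 0.95 around the 776 higher genes and -0.52 around the 257 lower ones, against -0.21 around all 15844. It was above 0 for 763 of the higher genes, 98.3%, and below 0 for 257 of the 257 lower ones. Over all genes it was above 0 for 30.9% and below 0 for 69.1%. Across genes the Pearson correlation of both changes was 0.79, a description of genes that share libraries and, where they are neighbours, positions. The cadherin genes were close to their surroundings, with a log2 change of 2.88 at Cdh18 and 2.70 around it. At Cxcl14 the surroundings changed by -0.37 and the gene by -2.27, and at Mmp27 by 0.74 and the gene by 2.998. For these 2 the difference was thus mostly in the gene itself, on at most 43 positions. They were no exceptions among the named genes. Gkn2, Krt77, Lyzl6, Syde1 and Sun5 changed by -2.26 to -1.65, and their surroundings by -0.493 to -0.303. Kcna4 changed by 2.98 and its surroundings by 0.873. Hnf4g, at 2.799 with 2.295 around it, and Arhgef16 were closer to their surroundings, like the cadherin genes. The remaining named genes lay between these cases.

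**Figure D4:**
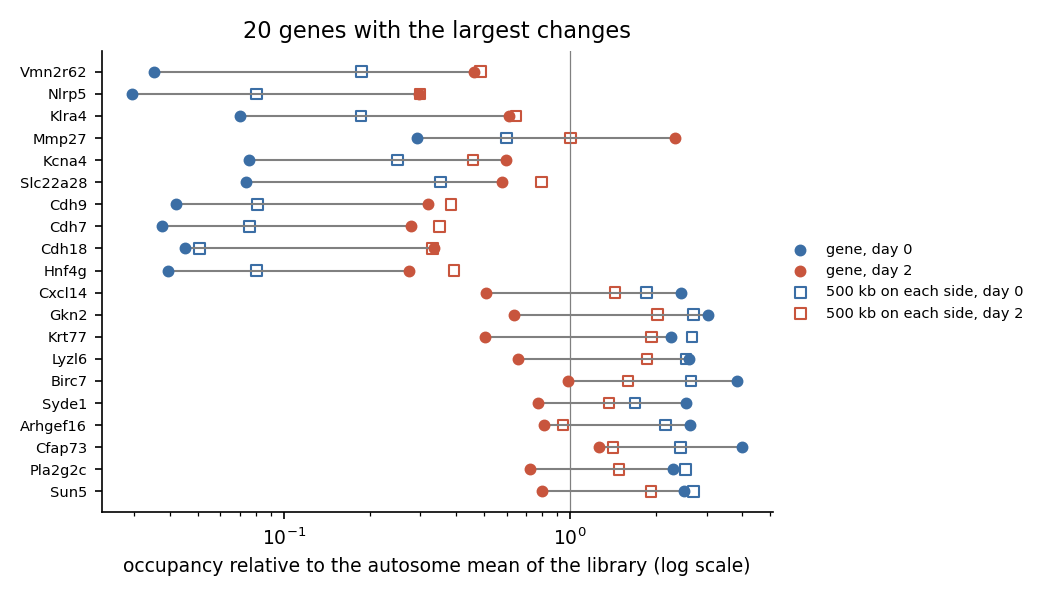
Relative occupancy, on a log axis, of the 10 genes with the largest increases and the 10 with the largest decreases (filled circles, joined by a line) and of the 500 kb on each side of each gene (open squares), on day 0 and day 2. The genes that were higher began at 0.030 to 0.291 of the autosome mean and those that were lower at 2.26 to 3.99 times it.

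Few genes of red cell formation were past 2 times. Of 120 genes in 10 erythroid lists on the autosomes, 105 were measured, and 0 were 2 times higher and 1 was 2 times lower, against 4.9% and 1.62% of all measured genes. Their median log2 change was -0.16, as for all genes at this rounding, with 51 members above and 54 below that value. The exception was Klf17, a Krüppel-like factor gene of 9.01 kb, with 38 positions on day 0 and 22 on day 2 and a log2 change of -1.34. The range of the others ended at 0.99, at Klf4.

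The globin genes are too short for more than a few positions. In the beta cluster the 5 genes together had 18 positions on day 0 and 25 on day 2, a ratio of 1.17 over the lists (exact 95% interval 0.613 to 2.28), and none reached the minimum. The adult chain gene Hbb-bs had 3 and 7 positions and Hbb-bt 4 and 0, and the earlier expressed Hbb-bh1 3 and 8 and Hbb-y 5 and 4. Hbb-bs and Hbb-bt are near-identical copies, so reads may be placed at either. In the alpha cluster the adult chain genes Hba-a1 and Hba-a2, also near-identical, had 4 and 6 and 4 and 3 positions, and the embryonic Hba-x 8 and 8. The neighbour Nprl3, which carries enhancers of the alpha globin genes in its introns, had 141 and 164 positions and a relative occupancy of 2.87 and 3.13. No difference at a globin gene was detectable at this number of positions.

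Among the transcription factors of the erythroid program, Tal1 had 60 positions on day 0 and 69 on day 2 and a relative occupancy of 2.78 on both days. Gata2, which is replaced by Gata1 as erythroblasts mature, went from 3.92 to 3.36, and Gfi1b, a repressor of erythroid and platelet cells, from 4.32 to 3.82. Klf1, the activator of the adult beta globin gene, had 16 and 14 positions and 4.86 and 3.43. Bcl11a, the repressor of embryonic and fetal globin genes, went the other way, from 263 to 386 positions and from 1.72 to 2.52. The 14 measured Krüppel-like factors had a median 0.42 above that of all genes, with 9 above it, and this excess remained between 0.23 and 0.53 in the other settings. The 13 GATA and TAL1 complex genes lay -0.02 from it. This turned to 0.30 among tall positions, 0.07 in lists of equal length and 0.03 with each position counted once, and was -0.31 within 500 bp of the gene ends.

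Genes of erythropoietin signalling were near the median of all genes, with 6 of 13 measured members above it. The receptor Epor had 27 positions on day 0 and 25 on day 2 and a relative occupancy of 4.47 and 4.06, its kinase Jak2 1.40 and 1.69, and the kinase Lyn 1.23 and 2.06. Of the 11 measured heme synthesis genes 8 lay below the median of all genes and 3 above, among the latter Cpox from 1.56 to 1.79, and the median was 0.10 below that of all genes over gene bodies and 0.02 above it at gene ends. In the membrane skeleton Add2, an adducin, went from 2.59 to 1.45 with 360 and 259 positions, and 5 of 13 measured members lay above the all-gene median. The median of this list was -0.03 from that of all genes, 0.24 above it among tall positions and -0.30 from it at gene ends. Among surface proteins the water channel Aqp1 went from 3.38 to 1.91, and 7 of 13 lay above the all-gene median. The members of each list thus lay on both sides of the median of all genes.

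Genes of the nucleus, the cell cycle and mitophagy, the clearance of mitochondria, were described together. Of 139 measured genes in 10 lists, 1 was 2 times higher and 0 lower, beside 4.9% and 1.62% of all measured genes. It was Hdac9, a histone deacetylase gene of 870 kb, with 590 positions on day 0 and 1301 on day 2. The condensin genes Ncapg and Smc4 went from 0.382 to 0.731 and from 1.24 to 1.94, while the kleisin gene Ncaph2 went from 3.59 to 2.64. Xpo7, an exportin needed for the maturation of the erythroid nucleus, had 1.52 and 1.71. Pcna, the replication clamp, had 18 positions on day 0 and 13 on day 2, with a log2 change of -0.97.

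Progenitor genes lay mostly above the median of all genes, 15 of 16, over gene bodies, by a median of 0.23 that turned to -0.26 within 500 bp of the gene ends. The stem cell factor receptor gene Kit had 252 positions on day 0 and 287 on day 2 with a relative occupancy of 2.04 and 2.07, and the stem cell factor gene Meis1 193 and 332 with 0.817 and 1.24. Myc had 12 and 19. None was past 2 times.

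Of 51 measured genes in 5 marker lists of other cell types of the fetal liver and its blood and 1 list of neural genes, 1 was 2 times higher and 0 were lower, beside 4.9% and 1.62% of all measured genes. It was Ptprc, the common leukocyte gene, with 122 and 290 positions. The median of macrophage genes lay 0.49 above that of all genes over gene bodies and -0.02 from it both among tall positions and within 500 bp of the gene ends. Of its 11 measured members 8 lay above, among them Adgre1, the gene of the F4/80 antigen, with 0.562 and 0.988. The other 3 lay below, among them C1qb with 2.37 and 1.32. Megakaryocyte genes lay 0.28 below with 1 of 6 above, and 0.15 above at the gene ends. Hepatocyte genes had relative occupancies of 1.11 on day 0 and 0.909 on day 2 as a list, with a median -0.11 from that of all genes over gene bodies. Its members ranged from sparse, as Alb with 0.623 and 0.584, to dense, as Apoa2 with 4.25 and 3.52. These values do not measure expression, and fewer cells of a type cannot be told apart from another structure of the gene in the same cells.

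Large gene families were described as well. Over the 349 vomeronasal receptor genes, pheromone receptors of the nose, relative occupancy was 0.156 on day 0 and 0.365 on day 2, and 169 genes held no position on day 0 against 82 on day 2. Only 41 reached the minimum of 30 positions, many through day 2, as with the 2 and 29 positions of Vmn2r62, so they do not stand for the family. Of these 24 were 2 times higher and 1 lower, and their median was 1.22 above that of all genes over gene bodies and 0.05 above it at the gene ends. Olfactory receptor genes numbered 1099, of which 547 held no position on day 0 and 233 on day 2, with 0.496 and 0.684 over the whole family. Its 21 measured members do not stand for it either, and their median turned from 0.27 above all genes to -0.06 from it in lists of equal length and -0.01 at the gene ends. Of 373 measured zinc finger genes 37 were 2 times higher and 3 lower, beside 4.9% and 1.62% of all measured genes, with a median 0.17 above all genes and 0.07 to 0.15 above in the other settings. The clustered protocadherins, adhesion proteins of neurons, had 35 measured genes, which all lay above the all-gene median, and 14 were past 2 times. These 14, all of the alpha cluster, overlap each other, so they are nearly 1 measurement. The smallest change among the measured genes was at Pcdhgb6, outside that cluster, from 1.27 on day 0 to 1.32 on day 2. Over the 57 genes together relative occupancy was 0.480 and 0.733.

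Keratins went the other way. Of 32 measured members 28 lay below the median of all genes and 7 were 2 times lower and 0 higher, beside 1.62% and 4.9% of all measured genes. The 7 lie near each other on chromosomes 15 and 11, so they are not separate measurements, and the 500 kb on each side of Krt77 changed by -0.47. The median of -0.58 stayed between -0.60 and -0.46 in the other settings that gave a value, and tall positions gave none. Over all 105 genes relative occupancy was 2.17 on day 0 and 1.36 on day 2, with 1541 and 1171 positions. After Krt77, the largest decreases were at Krt73, with 34 and 17 positions, and Krt42, with 30 and 17. Of the Hox genes 15 of 17 lay below the median of all genes by a median of 0.16, with Hoxc4 at 65 and 42 positions. The receptor and protocadherin families, each taken over all its genes, were thus sparse on day 0 and higher on day 2. The keratins, taken over all their genes, were above the autosome mean on day 0 and lower on day 2. Ribosomal protein genes had 3.67 on day 0 over all 78 genes, and the median of the 40 measured lay 0.10 below that of all genes. The part of day 0 density in these differences was not tested.

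**Figure D5:**
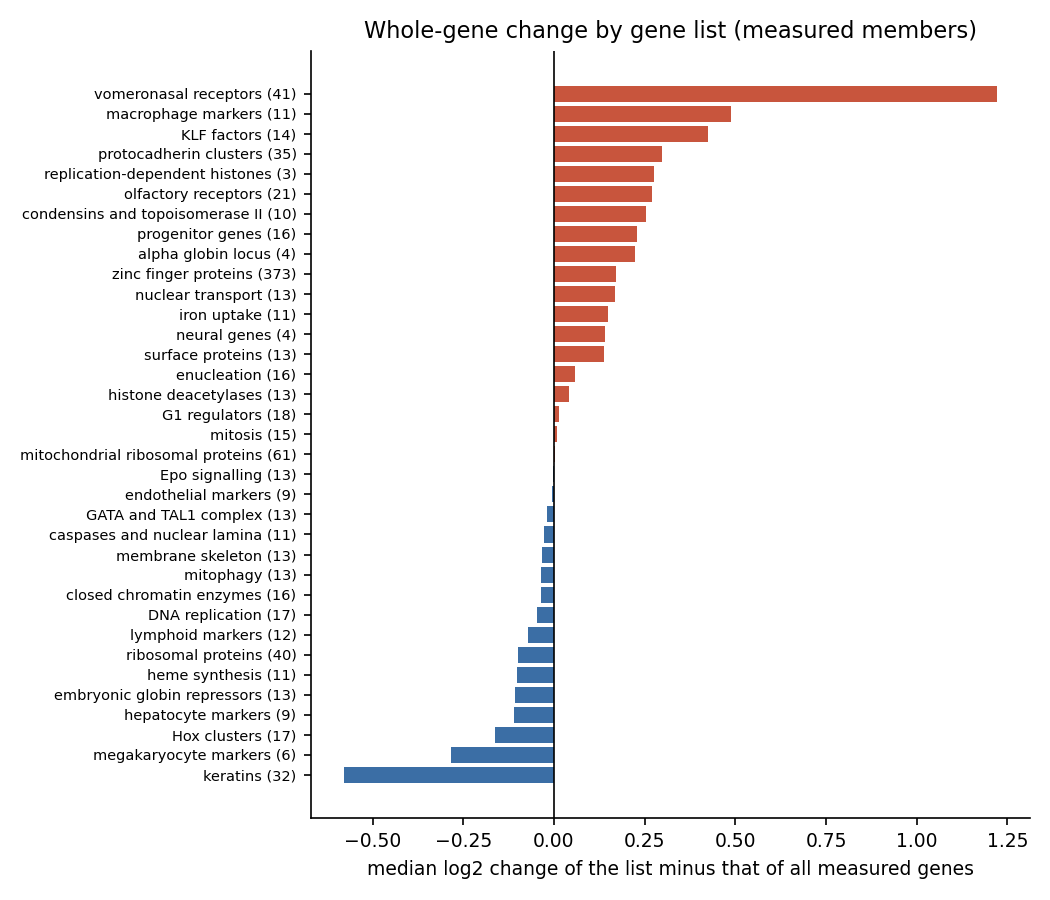
Median log2 change in relative occupancy of each gene list minus the median of all 15844 measured genes, for the lists with at least 3 measured members, whose number is in brackets. Vomeronasal receptors stand at 1.22 and keratins at -0.58, and the GATA and TAL1, membrane skeleton and erythropoietin signalling lists lie within 0.04 of 0. The first 2 of these turn to 0.30 and 0.24 among tall positions and are -0.31 and -0.30 at gene ends.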

How the data were processed

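Listed nucleosome positions of 1 day 0 and 1 day 2 library were compared, without replicates. Per the submitters' processing notes the authors used Bowtie2 and bedtools with the build mm10, and versions and the position caller are not stated in the sources used here. Summit values are a signal, smoothed coverage scaled by the authors, and fuzziness is a score deposited by the authors. Their p-values, also deposited by the authors, were not used. Each position is 140 bp wide and centres lie at least 100 bp apart. Positions were called per library, so sums depend on how much was called.

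Genes came from a RefSeq table of GRCm38.p6, without genes below 3 Mb, and 80.0% of them had a promoter window. Shared centres lay within 20 bp, and the moved list was shifted by 1000 bp. Bins needed 20 positions and genes 30 over both days, and calls are a size rule of 2 times. The named genes are the 10 largest changes in each direction, the extremes of each list, all globin genes and the 3 longest runs, without unnamed models or overlapping genes. Other list members were chosen after their values were seen, as were the groupings of bins by day 0 number and the gene surroundings. The members and lists were chosen with earlier results of these data known. Scripts were tested on simulated lists. Python 3.11.15, numpy 2.4.6, pandas 2.3.3, scipy 1.17.1 and matplotlib 3.10.9 were used. Alternatives were other summit minimums, list lengths, tolerances, bins, gene minimums and scalings.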

Additional observations from a re-analysis of the deposited data

Results flagged for a closer look

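Outside the autosomes the day 2 list also held more positions, relative to the autosomes, than the day 0 list. On chromosome X there were 45232 positions on day 0 and 88409 on day 2, a ratio of 1.65 after division by that of the autosomes (exact 95% interval 1.63 to 1.66). Chromosome Y had 1127 and 3396 positions, a scaled ratio of 2.54 (2.37 to 2.72), and the mitochondrial genome, which carries no nucleosomes, 16 and 89, a scaled ratio of 4.68 (2.73 to 8.55). These chromosomes belong to no comparison above, and the intervals cover counting error only.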

How the results depend on the processing

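Tall positions (summit value at least 10) gave the most departures. There the difference in empty 10 kb windows turned from 4.80 to -1.11 points, the shared share was 5.48% with a ratio of 1.72, and the gap share differed by -2.94 points instead of -1.39. The frequency of distances around the second peak differed by 0.255 instead of 0.034. Higher and lower bins were 14.5% and 15.8% of those with 20 or more tall positions, and higher and lower genes 506 and 826 of 6412 measured. The ratio in genes under 10 kb was 0.984 and that after high CpG starts 1.24. The medians minus that of all genes turned to 0.30 for the GATA and TAL1 complex, 0.24 for the membrane skeleton and -0.0234 for macrophage markers. In lists of equal length the values were -0.054 for fuzziness, 14.0% shared, -3.29 points for gaps and 0.064 for distances. In these lists 3.97% of bins and 550 genes were lower, and the cut to equal length fell unevenly on the chromosomes. The medians of ribosomal proteins, the GATA and TAL1 complex and olfactory receptors turned to 0.0164, 0.0711 and -0.0623. With each position counted once, 0.708% of bins and 141 genes were lower and the GATA and TAL1 complex turned to 0.0316. Within 500 bp of gene ends the medians turned for progenitor genes (-0.26), heme synthesis (0.0188), macrophage markers (-0.0230), megakaryocyte markers (0.15) and olfactory receptors (-0.0142). Tolerances of 10 and 50 bp gave 9.04% and 34.2% shared, with ratios of 1.37 and 1.18. Lower bins were 0.041% in bins of 1 Mb and 4.39% scaled to the median bin. A minimum of 10 positions gave 435 lower genes, 100 gave 359 higher and 120 lower, and scaling to the median gene gave 129 lower. The causes were not tested. Of the rest, 118 values kept their direction and stayed within a set limit, which for a list was the SD over its members. Shifts within that limit include those at gene ends of the GATA and TAL1 complex (to -0.31), membrane skeleton (to -0.30) and Hox lists (to -0.30). They also include that of megakaryocyte markers among tall positions (to -0.02). A further 11 values of named genes and lists kept their direction and moved past the limit. Among tall positions, 16 of the 20 named genes and the vomeronasal, keratin, Hox, ribosomal protein and olfactory lists gave no value. No paired analysis was possible because each day has 1 library, which also leaves no replicate to leave out. The total read numbers are not stated in the sources used here, so the part of depth in the values of single genes and promoters was not tested.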
